A study of Mus musculus with 12 samples.

Results

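Starred miRNAs are the entries of the array whose name ends in an asterisk, the older notation for the strand of a miRNA hairpin that had been found less often than the strand with the plain name. Of the 696 mouse miRNAs on the array, 118 carried a star. Of these, 8 were left out by the rule that chose the members (miR-378*, miR-674*, miR-199b*, miR-29a*, miR-29b-1*, miR-29c*, miR-22*, and miR-150*), and the 110 others were analyzed. An unstarred entry of the same hairpin or family name was on the array for 107 of the 110 (103 different partners), and miR-1982*, miR-297a*, and miR-374* had none.

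The arrays measured RNA of osteoclast cultures, grown from the marrow of male C57BL/6 mice of 6 to 8 weeks of age. Cells positive for CD45R (B220) or CD3 had been removed, and every culture received M-CSF and RANKL at 30 ng/ml each, so that all groups share this treatment and no culture without RANKL was measured. There were 4 independent cultures at each of days 1, 3, and 5 and 1 array per culture. Whether a change reflects fewer cells of a type or less RNA per cell cannot be told apart in such bulk samples.

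A miRNA hairpin is cut by Dicer into a short duplex with a strand from its 5' arm (5p) and a strand from its 3' arm (3p). One strand is loaded into an Argonaute protein and kept, and the other is usually degraded, although both strands of some hairpins persist and each can repress its own targets. Bases 2 to 8 of a strand, the seed, do most of the pairing to target mRNAs, so the strands of 1 hairpin recognize different targets.

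RefSeq held the mature sequence of 97 of the 110 starred miRNAs (build GRCm38.p6, matched through the array's probe sequences). In the 89 pairs in which the arm of both entries was known, they lay on opposite arms in all 89. Of the 97 starred sequences, 36 came from the 5p arm and 61 from the 3p arm. A first base of U was found in 18 of the 97 starred sequences (18.6%), whereas 36 began with C, 29 with A, and 14 with G. Among the 90 partners with a sequence, 55 (61.1%) began with U, 21 with A, 8 with C, and 6 with G. The sequences below belong to the miRNAs on which the results turn, with the seed in capitals, and the partners of miR-24-1*, miR-24-2*, and miR-455* are shown because both strands of these hairpins changed.
miR-24-1*: gUGCCUACugagcugauaucagu
miR-24-2*: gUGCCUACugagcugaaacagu
miR-24: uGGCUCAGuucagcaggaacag
miR-455*: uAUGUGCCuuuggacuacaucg
miR-455: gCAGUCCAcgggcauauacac
miR-30a*: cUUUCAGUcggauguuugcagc
miR-30e*: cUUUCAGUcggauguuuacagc
miR-30c-1*: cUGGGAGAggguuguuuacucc
miR-30c-2*: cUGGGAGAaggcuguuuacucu
miR-92a-2*: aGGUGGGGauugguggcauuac
miR-450a-2*: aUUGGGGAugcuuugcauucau
miR-135a-1*: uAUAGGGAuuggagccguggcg
miR-3072*: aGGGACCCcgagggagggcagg
miR-1982*: uUGGGAGGguccuggggagg
miR-140*: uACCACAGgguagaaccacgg

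The number of miRNAs detected on an array, as marked by the scanner software, was 233 to 276 at day 1, 211 to 226 at day 3, and 248 to 269 on 3 arrays of day 5. The array of day 5 replicate 4 stood apart with 186. Arrays of days 1 and 5 shared slide 1 and those of day 3 filled slide 2, so that slide and day cannot be told apart in comparisons with day 3. Signal sums over marker miRNAs of other cell types also moved. The erythroid sum (2 of 4 listed miRNAs on the array) ranged from 29020 to 57393 at day 1 and from 124 to 295 at day 5, when 1 of the 2 was undetected. The megakaryocytic marker miR-126-3p ranged from 608 to 1337 at day 1 and from 0 to 40 at day 5, when it was undetected. The stromal sum (5 miRNAs) ranged from 494 to 896 at day 1 and from 2432 to 3545 at day 5. At day 1, 1 of the 5 was undetected, and at day 5 a different 1, miR-145. The lymphoid sum (3 miRNAs) ranged from 2471 to 3336 and from 1594 to 2026, and the granulocytic marker miR-223 from 82084 to 85627 and from 55476 to 62758. The part of these cells in the changes reported here was not tested.

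Most starred miRNAs were not detected. A detection mark on at least 1 of the 12 arrays was present for 43 of the 110 (39.1%), whereas 63 of their 103 partners (61.2%) and 283 of all 578 unstarred miRNAs (49.0%) had 1. Detection on all 12 arrays was found for 9 starred miRNAs, namely miR-15b*, miR-17*, miR-18a*, miR-24-2*, miR-30e*, miR-130b*, miR-140*, miR-1982*, and miR-3072*. The other 67 were never detected, and 14 of these had a partner that was detected on all 12 arrays, among them let-7g, let-7i, miR-16, miR-27a, and miR-27b. Per array, a median of 24 of the 110 were detected at day 1, 19.5 at day 3, and 28 at day 5, with 16 on day 5 replicate 4. This array held the lowest number of all 12 for the starred miRNAs and for the partners.

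**Figure D1:**
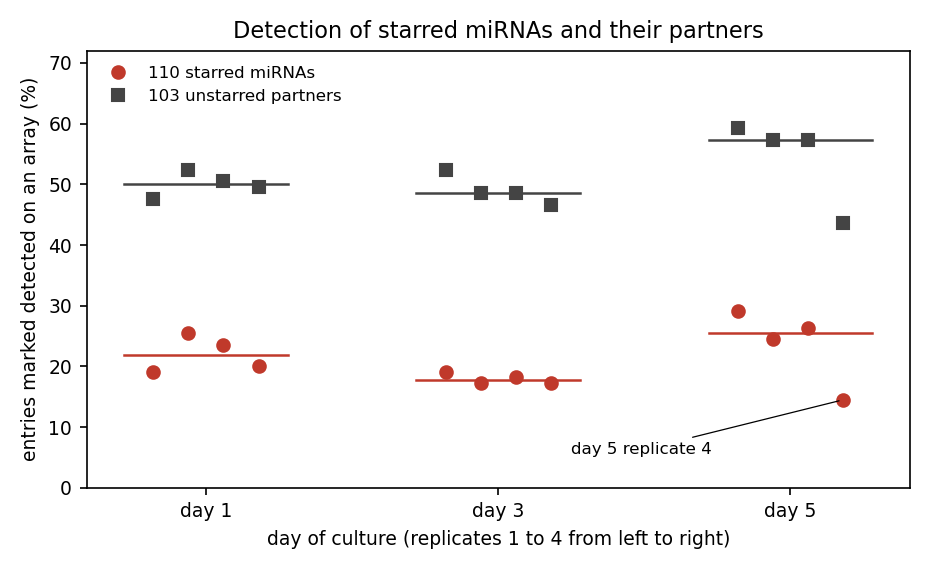
Percentage of the 110 starred miRNAs (circles) and of their 103 unstarred partners (squares) marked as detected on each of the 12 arrays, by day of culture, with the median of each day as a line. Starred miRNAs lie between 14.5% and 29.1% and partners between 43.7% and 59.2%, and day 5 replicate 4 is the lowest point of both.

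In 35 of the 107 pairs both entries were detected on some array, in 31 the unstarred entry alone, in 7 the starred entry alone, and in 34 neither. The partner was detected on more arrays in 56 pairs and the starred entry on more arrays in 10. The 7 pairs in which the starred entry alone was detected were those of miR-295*, miR-299*, miR-300*, miR-330*, miR-467d*, miR-470*, and miR-3072*. Of these, miR-3072* was detected on 12 arrays and miR-467d* on 11, and the others on 1 to 3. In the other 3 pairs, miR-135a-1* was detected on 11 arrays and miR-135a on 4, miR-191* on 11 and miR-191 on 6, and miR-450a-2* on 11 and miR-450a on 8. Probes differ in brightness, so these numbers do not order the abundance of the strands.

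To ask which starred miRNAs changed during osteoclast formation, the 43 detected ones were tested in a fit over the 334 miRNAs of the array that were detected at least once, on log2 values of the quantile normalized signal. The F test over the 3 days (limma, Benjamini-Hochberg adjusted p under 0.01) called 14 of the 43 (32.6%), whereas it called 210 of all 334 miRNAs (62.9%). From day 1 to day 5, with more than a 2-fold change required as well, 8 of the 43 (18.6%) were called higher, against 24.3% of all miRNAs tested, and 7 of the 43 (16.3%) were called lower, against 22.5%. Both shares lay below those of all miRNAs tested, and the difference was not tested. The median log2 change of the 43 was 0.42, and that of all 334 was 0.11.

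The 8 called higher were miR-24-1*, miR-24-2*, miR-30a*, miR-181a-1*, miR-186*, miR-322*, miR-425*, and miR-455*. The 7 called lower were miR-30c-1*, miR-30c-2*, miR-92a-2*, miR-135a-1*, miR-450a-2*, miR-1982*, and miR-3072*. All 7 that fell had been detected on all 4 arrays of day 1, and their signals before normalization did not overlap between days 1 and 5. Of the 8 called higher, miR-24-1* and miR-24-2* alone were detected on all 4 arrays of day 5, and the signals before normalization were free of overlap for 3 (these and miR-455*). With the arrays scaled to their 75th percentile instead, or not scaled, the same 3 of the 8 kept the call, whereas 6 of the 7 lower ones kept it, all but miR-30c-1*. Signals before normalization fell in the median of the array, although some rose. Without scaling, the median log2 change of all 334 miRNAs tested was -0.50, with 48 called higher and 85 lower. How often other miRNAs were free of overlap was not counted, so these numbers do not set the starred miRNAs apart. MiR-30a*, miR-181a-1*, miR-186*, miR-322*, and miR-425* were detected at day 5 alone, and miR-30c-2* and miR-92a-2* at day 1 alone. They entered the test only through the day on which the fit placed them higher, so filter and call are not independent. Without a detection filter, miR-92a-2* alone of these kept its call.

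**Figure D2:**
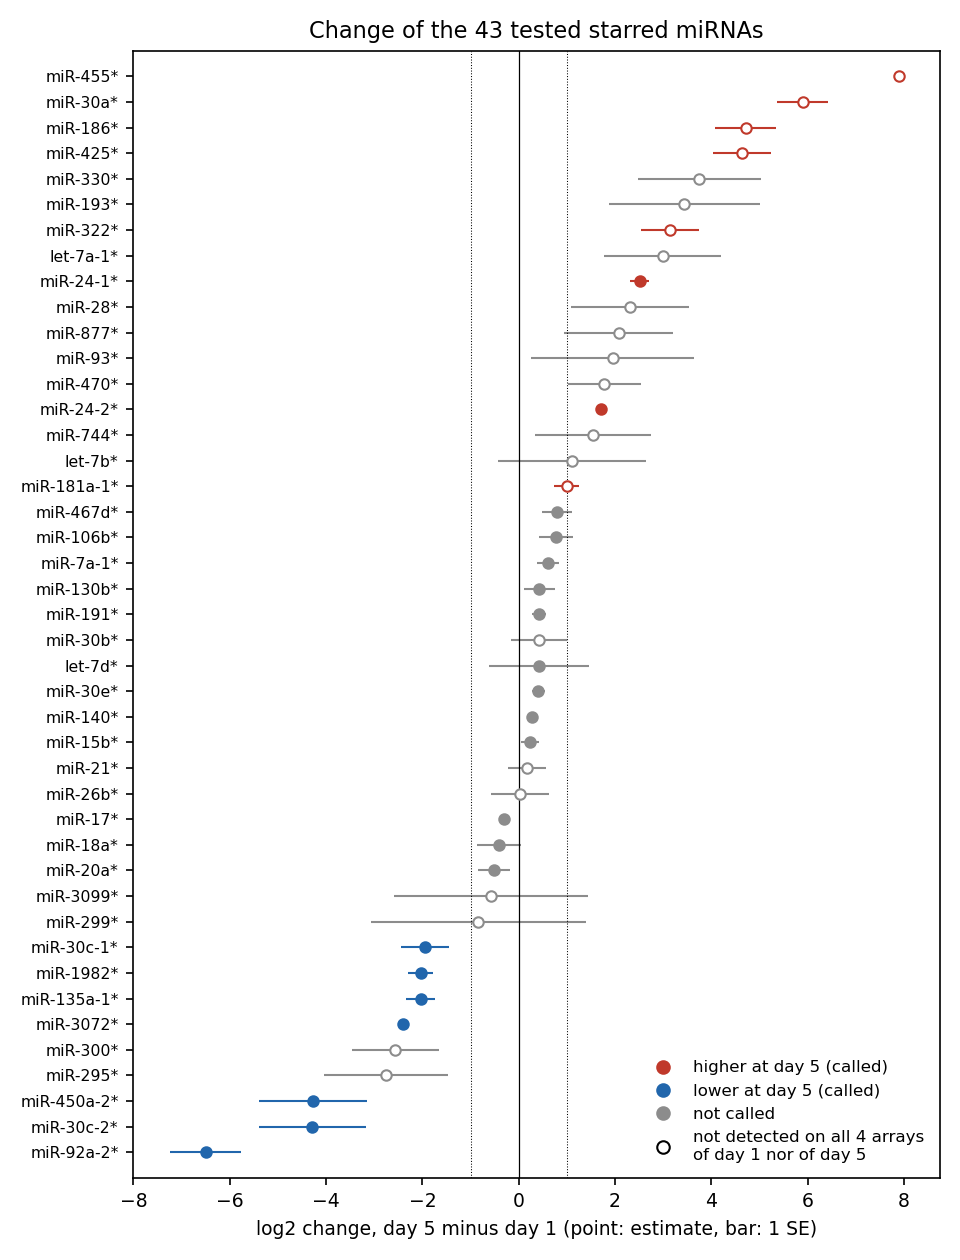
Log2 change from day 1 to day 5 (limma estimate, with 1 standard error as a bar) of the 43 starred miRNAs tested, with those called higher in red, those called lower in blue, and the others in gray. Open points, which were not detected on all 4 arrays of day 1 nor of day 5, make up 6 of the 8 called higher and 0 of the 7 called lower, and dotted lines mark a 2-fold change. Open points of called miRNAs rest on day 1 arrays below detection, and their distance from 0 depends on the floor for all but miR-181a-1*. Some filled points depend on the floor as well. At day 5, all 4 arrays stood at the floor for miR-92a-2*, and 1 did for each of miR-30c-2* and miR-450a-2*.

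The starred strands of both miR-24 hairpins rose. MiR-24 is made from 2 loci, and mature miR-24 cannot be assigned to either, whereas the starred strands differ: the first 16 bases are identical, including the seed UGCCUAC, and their 3' ends are not, and whether their probes share signal was not tested. MiR-24-1* (chr13:63301213-63301235, + strand, inside the span of the protein-coding gene Aopep) had normalized log2 signals of 6.16, 6.65, 6.50, and 5.63 at day 1, 8.33, 8.26, 8.44, and 8.14 at day 3, and 8.71, 8.68, 8.86, and 8.71 at day 5. Every array of the later days exceeded all those of day 1, of which 2 of 4 had detected it. MiR-24-1* rose by 2.51 on the log2 scale until day 5 (SE 0.19, limma, Benjamini-Hochberg adjusted p = 6.33e-07), by 1.12 with normexp background correction, and by 7.15 with deposited values, and was called in each.

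MiR-24-2* (chr8:84208839-84208860, + strand) had log2 signals of 9.07, 9.13, 9.22, and 9.16 at day 1, 10.29, 10.12, 10.29, and 10.06 at day 3, and 10.66, 10.72, 11.02, and 11.02 at day 5. The 3 days did not overlap. Its log2 change was 1.71 (SE 0.10, limma, Benjamini-Hochberg adjusted p = 8.98e-08). The shared partner miR-24 also rose, from 14.62 ± 0.09 to 15.89 ± 0.02 (log2, SD, n = 4), a change of 1.27 (SE 0.07, limma, Benjamini-Hochberg adjusted p = 4.22e-08). These loci lie in clusters with miR-23 and miR-27, and miR-27a* and miR-27b* were not detected on any array although miR-27b rose by 1.75 on the log2 scale (limma, Benjamini-Hochberg adjusted p = 1.15e-08).

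MiR-455* (chr4:63256867-63256888, + strand), the 5p strand of a hairpin inside the span of the collagen gene Col27a1, was not detected at day 1 and was detected on 4 arrays of day 3 and 3 of day 5. Before normalization its signals were 12.9, 8.8, 20.1, and 18.1 at day 1, 206.6, 174.4, 178.9, and 195.6 at day 3, and 259.6, 172.4, 244.3, and 297.1 at day 5. After normalization all 4 arrays of day 1 were at the floor, and the log2 means were 8.07 ± 0.08 at day 3 and 7.90 ± 0.14 at day 5 (SD, n = 4). There is no measured level at day 1, so that the change is a bound.

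MiR-455* was at least 3.40-fold higher at day 5 than at day 1 when each array of day 1 was set to the 5th percentile of the signals it had detected. The weakest detected signal could not serve as the bound, since it was at the floor on 3 of the 4 arrays of day 1. MiR-455* was called in the fit, in which all 4 arrays of day 1 stand at the floor (limma, Benjamini-Hochberg adjusted p = 1.56e-14), so that the size of the fitted difference and of its p depends on the floor. The call was kept in all 10 other settings that gave a value and without any 1 array. The partner miR-455 was likewise not detected at day 1. It had log2 means of 11.13 ± 0.16 at day 3 and 10.61 ± 0.14 at day 5 (SD, n = 4), and was detected on all 8 arrays of these days.

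The other 5 called higher were detected on no array of day 1 and on 1 to 3 arrays of day 5. MiR-30a* had signals before normalization of -1.8, 28.3, 27.3, and 2.5 at day 1 and of 100.3, 93.4, 97.4, and -11.9 at day 5. It was detected on 3 arrays of day 5, and the array with the negative value was replicate 4, whose normalized log2 value was nevertheless 5.78 and above all 4 of day 1. With day 1 at the 5th percentile of the detected signals, it was at least 1.29-fold higher at day 5. The fit, with 3 arrays of day 1 at the floor, called it (limma, Benjamini-Hochberg adjusted p = 2.86e-06), and the call was lost with 75th percentile scaling, without normalization, without a detection filter, and with normexp background correction.

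MiR-425* and miR-186* were called against a day 1 below detection, and no bound above 1-fold could be set for either. Their mean signals before normalization were 19.8 and 22.4 at day 1 and 42.1 and 42.8 at day 5, with overlap in both. These calls were lost under the same 4 settings as that of miR-30a*. Before normalization, replicate 4 of day 5 again gave the lowest of the 4 values of day 5 for each, 27.1 for miR-186* and -10.1 for miR-425*. Its normalized log2 value was 6.16 for miR-186*, the highest of day 5, and 5.81 for miR-425*, where the highest was 6.24. MiR-186* was no longer called without this replicate or without day 1 replicate 2.

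MiR-181a-1* was detected on 3 arrays of day 5 alone and was called higher (limma, Benjamini-Hochberg adjusted p = 0.00546). By the 5th percentile, its normalized signal was at least 1.82-fold higher at day 5. The bound depends on the scaling. Before normalization the signals of miR-181a-1* were 66.4 to 176.3 at day 1 (mean 119.0) and 97.8 to 214.6 at day 5 (mean 148.2), which overlapped. Its partner miR-181a, a lymphoid marker, had a log2 change of -0.80 and was not called. MiR-322* was detected on 1 array of 12, and its mean signal before normalization was 2.0 at day 1 and -8.9 at day 5, the opposite direction to its call (limma, Benjamini-Hochberg adjusted p = 0.000868). The mean of day 5 rests on replicate 4, at -80.8. The other arrays of day 5 gave 24.9, 11.6, and 8.8, within the range of day 1 (-16.1 to 27.2). No bound could be set for miR-322*, and a floor of 16, normexp background correction, or no detection filter also ended its call. Both calls were lost without day 5 replicate 4 and without normalization. That of miR-181a-1* was also lost without day 1 replicates 2 and 4, day 3 replicates 2 and 4, and day 5 replicate 3, with the replicate number as a block, in the slide 1 arrays alone, and without a detection filter or with normexp, and that of miR-322* without day 1 replicates 2, 3, and 4.

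**Figure D3:**
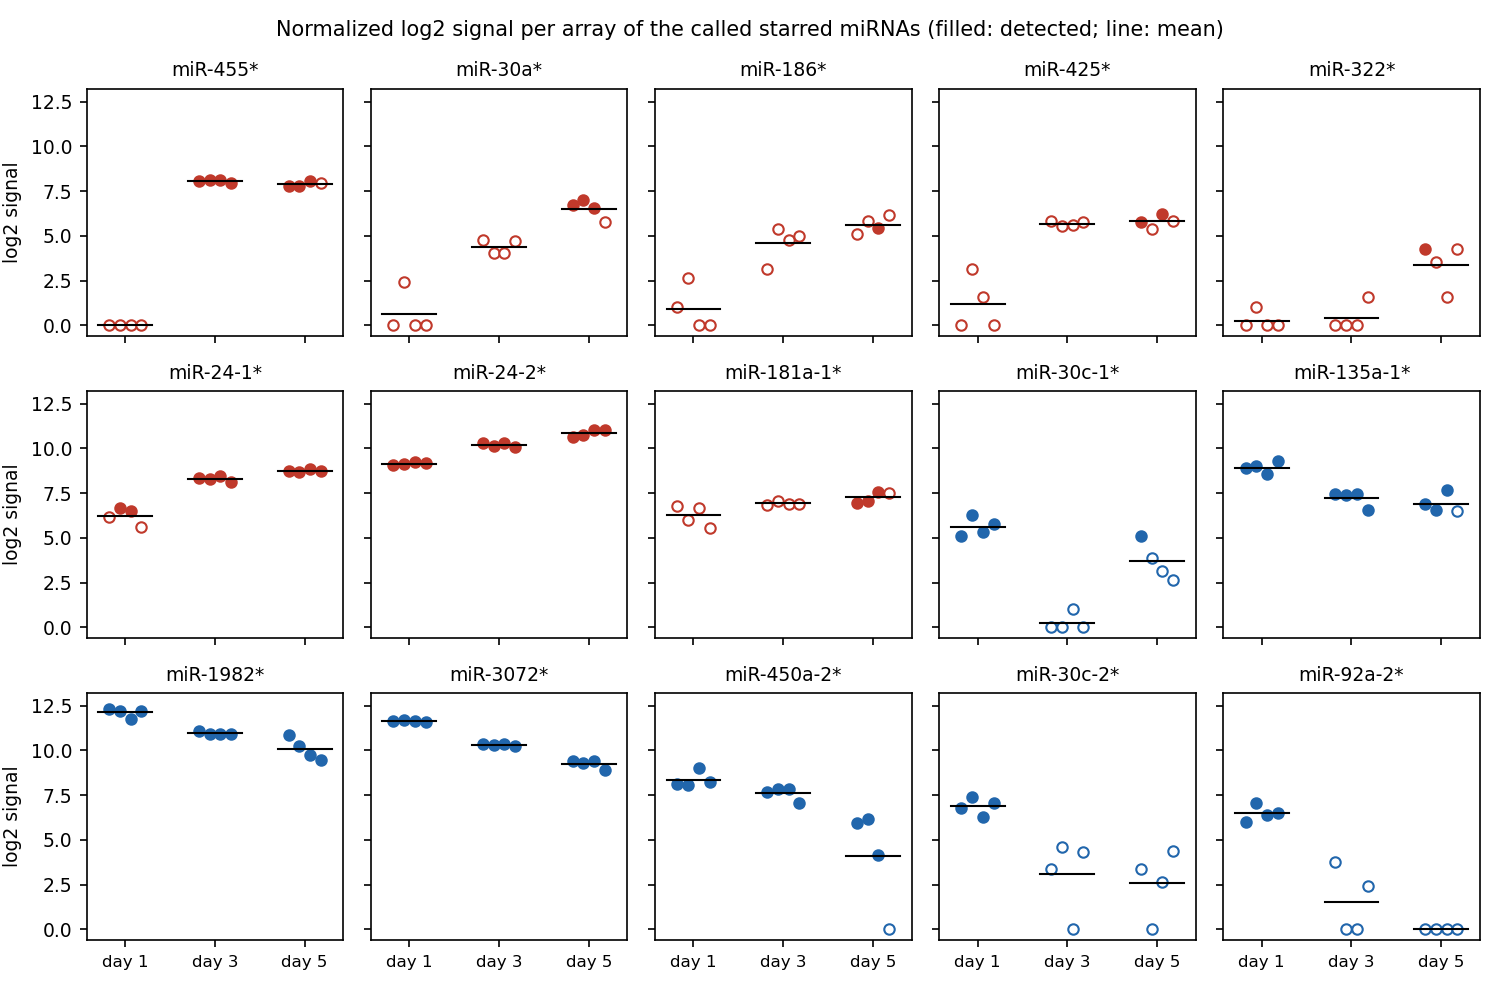
Normalized log2 signal of the 15 starred miRNAs called between days 1 and 5, by day and array, with detected arrays as filled points, undetected arrays as open points, and the mean of each day as a line. The upper row and miR-181a-1* have open points at all 4 arrays of day 1, whereas those that fell have filled points there.

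MiR-92a-2* (chrX:52741892-52741913, - strand) comes from the X-linked paralog of the cluster of miR-17 and miR-92a, a group of miRNAs known for promoting proliferation. Its signals before normalization were 111.5, 169.2, 115.9, and 106.3 at day 1, 18.5, -2.4, 0.9, and -15.9 at day 3, and -3.3, -4.9, 0.8, and -122.0 at day 5. Detection was complete at day 1 and absent on the 8 later arrays.

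MiR-92a-2* was at least 3.34-fold lower at day 5 by the lowest detected signal, whereas the 5th percentile gave a bound of 1.0-fold. The fit, with all 4 arrays of day 5 at the floor, called it lower (limma, Benjamini-Hochberg adjusted p = 1.78e-05). The fitted log2 change was -6.50 with the floor of 1, -2.50 with a floor of 16, -9.82 with a floor of 0.1, and -0.54 with normexp background correction, where the call was lost. The partner miR-92a, which is made from 2 hairpins, stayed detected on 12 arrays with log2 means of 13.72 ± 0.07 at day 1 and 12.75 ± 0.10 at day 5 (SD, n = 4). Its change of -0.96 (SE 0.08, limma, Benjamini-Hochberg adjusted p = 1.36e-06) missed the 2-fold criterion.

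Of the 6 starred miRNAs of the cluster of miR-17 and miR-92a and of its paralogs on the array, 4 were detected, and miR-92a-2* was the 1 that fell. MiR-17*, miR-18a*, and miR-20a* were not called, with log2 changes of -0.30, -0.41, and -0.51. MiR-17* passed the F test over the 3 days (limma, Benjamini-Hochberg adjusted p = 0.000529) with log2 means of 10.00 ± 0.20, 10.43 ± 0.05, and 9.70 ± 0.17 at days 1, 3, and 5 (SD, n = 4). MiR-106b* and miR-93*, of the related miR-106b-25 cluster, were detected and not called.

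The miR-30 family, whose unstarred members share 1 seed, was split among its starred strands. All 5 on the array were detected. MiR-30c-1* and miR-30c-2* were called lower, miR-30a* was called higher, and miR-30b* and miR-30e* were not called. MiR-30a* and miR-30e* have the same seed (UUUCAGU) and differ at 1 base, yet miR-30e* was detected on all 12 arrays with a log2 change of 0.41 (SE 0.13, limma, Benjamini-Hochberg adjusted p = 0.0143), whereas miR-30a* was detected on 3. With such near-identical sequences the probes may share signal, which was not tested.

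MiR-30c-2* (chr1:23291754-23291775, + strand) had signals before normalization of 178.2, 209.2, 110.0, and 143.2 at day 1 and 17.4, 5.8, 13.5, and -78.1 at day 5. It was detected on 4 arrays of day 1 and on 0 of the 8 later ones, and was at least 4.38-fold lower at day 5 by the lowest detected signal and at least 1.32-fold lower by the 5th percentile (limma, Benjamini-Hochberg adjusted p = 0.0056 for the fitted change). The call was lost without day 5 replicate 2 or replicate 3, without a detection filter, with a floor of 0.1, and with normexp background correction.

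MiR-30c-1* (chr4:120769546-120769567, - strand, inside the span of Nfyc, which also holds miR-30e*) shares the seed UGGGAGA with miR-30c-2* and differs from it at 3 bases. Its normalized log2 signals were 5.12, 6.26, 5.35, and 5.78 at day 1, 0.00, 0.00, 1.02, and 0.00 at day 3, and 5.12, 3.87, 3.13, and 2.63 at day 5. The lowest value of day 1 equalled the highest of day 5, so these days touched. Its log2 change of -1.94 (SE 0.50, limma, Benjamini-Hochberg adjusted p = 0.00566) was lost in 5 of the 12 fits that left out 1 array, those without day 1 replicates 2 and 4, day 3 replicate 4, and day 5 replicates 3 and 4. It was kept in 2 of 11 other settings (a floor of 16 and the methods' analysis of variance) and was lost, among others, with deposited values (adjusted p = 0.0182 by limma) and with the replicate number as a block (adjusted p = 0.0158 by limma). The shared partner miR-30c was detected on 12 arrays and not called, with a log2 change of 0.44 (SE 0.11).

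MiR-3072* and miR-1982* were detected on all 12 arrays and fell at both later days. MiR-3072* (chr12:109747893-109747914, + strand), with a GC content of 77.3%, had normalized log2 signals of 11.64, 11.71, 11.64, and 11.59 at day 1, 10.36, 10.33, 10.36, and 10.25 at day 3, and 9.39, 9.27, 9.39, and 8.90 at day 5. Each day lay below the one before with no overlap. It fell by 2.41 on the log2 scale from day 1 to day 5 (SE 0.10, limma, Benjamini-Hochberg adjusted p = 6.46e-09) and by 1.09 from day 3 to day 5 (limma, Benjamini-Hochberg adjusted p = 3.64e-05). Its partner miR-3072 was not detected on any array.

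MiR-1982* (chr10:80828808-80828827, + strand, GC content 70.0%, inside the span of Oaz1, the gene of an ornithine decarboxylase antizyme) had log2 signals of 12.31, 12.20, 11.78, and 12.20 at day 1, 11.11, 10.94, 10.94, and 10.94 at day 3, and 10.85, 10.25, 9.76, and 9.49 at day 5. The days did not overlap. Its log2 change was -2.03 (SE 0.26, limma, Benjamini-Hochberg adjusted p = 3.48e-05), and there was no unstarred entry to set beside it.

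MiR-135a-1* (chr9:106154179-106154200, + strand, inside the span of Glyctk) had log2 signals of 8.88, 8.99, 8.55, and 9.29 at day 1 and 6.87, 6.54, 7.68, and 6.50 at day 5, when 3 of 4 arrays detected it. The days did not overlap, and the log2 change was -2.03 (SE 0.30, limma, Benjamini-Hochberg adjusted p = 0.000118). Normexp background correction gave -0.91 and ended the call, and the deposited values gave -5.82. The partner miR-135a was detected on the 4 arrays of day 1 and on no later one. Its difference did not pass (limma, Benjamini-Hochberg adjusted p = 0.0105).

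MiR-450a-2* (chrX:53048304-53048325, - strand) belongs to an X-linked group of hairpins that also holds miR-322. Its signals before normalization were 382.6, 357.1, 687.1, and 301.4 at day 1, 158.0, 154.2, 150.5, and 127.6 at day 3, and 71.0, 60.0, 32.6, and -117.1 at day 5. The 3 days did not overlap. Its log2 change was -4.27 (SE 1.13, limma, Benjamini-Hochberg adjusted p = 0.00636) with all arrays and -2.64 without day 5 replicate 4, whose value was at the floor. The call was kept in 5 of the 12 fits that left out 1 array, and was lost without day 1 replicates 1, 3, and 4, day 3 replicates 1, 2, and 3, and day 5 replicate 3. It was also lost without a detection filter, with a floor of 0.1, with the methods' analysis of variance, and in the slide 1 arrays alone, and the log2 change was -1.04 with normexp and -7.53 with deposited values. The partner miR-450a had log2 means of 7.66 ± 0.19 at day 1 and 7.60 ± 0.18 at day 5 (SD, n = 4) and was not called.

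Without day 5 replicate 4, 14 starred miRNAs were called between days 1 and 5, and 11 of the 15 were among them. Calls over all miRNAs were not counted in this fit. MiR-30c-1*, miR-181a-1*, miR-186*, and miR-322* were lost, and miR-193*, miR-295*, and miR-300* were gained. In a fit of the slide 1 arrays alone, 12 of the 15 were called and none was gained. All 333 miRNAs tested there split into 77 higher and 71 lower. MiR-30c-1*, miR-181a-1*, and miR-450a-2* were lost there.

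From day 1 to day 3, 11 of the 43 (25.6%) were called, against 35.0% of all miRNAs tested. All 11 were among the 15 called at day 5, 6 of them higher (miR-24-1*, miR-24-2*, miR-30a*, miR-186*, miR-425*, and miR-455*) and 5 lower (miR-30c-1*, miR-92a-2*, miR-135a-1*, miR-1982*, and miR-3072*). Both comparisons share the arrays of day 1. Between days 3 and 5, 3 of the 43 (7.0%) were called, against 10.5% of all miRNAs tested. These were miR-3072*, which fell further, and miR-30c-1* and miR-322*. The last 2 were called higher at day 5 against a day 3 below detection on all 4 arrays, each was detected on 1 array of day 5, and no bound could be set. Before normalization the mean signal of miR-30c-1* was -4.2 at day 3 and -6.2 at day 5, the opposite direction to the call. The mean of day 5 rests on replicate 4, at -102.1. The other arrays of day 5 gave 45.5, 15.4, and 16.5, above all of day 3 (-23.3 to 9.9).

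The remaining families held few changes. Of 7 starred let-7 miRNAs on the array, 3 were detected (let-7a-1*, let-7b*, and let-7d*) and 0 were called. Of 13 listed for the imprinted Dlk1-Dio3 region 2 were detected, of 4 from the Sfmbt2 cluster 1, and of 3 from the miR-15 and miR-16 group 1. In the miR-130, miR-148, miR-101, and miR-26 group, 2 of 4 were detected. So were 1 of 3 linked to NF-kB and inflammation (miR-21*) and 1 of 3 linked to proliferation and p53 (miR-193*). None of these listed miRNAs was called. The Dlk1-Dio3 list did not hold miR-3072* (chr12:109747893-109747914), which was called lower. This miRNA lies near the listed miR-154* (chr12:109738474-109738495), on the same strand. Starred members of the stromal list (2 on the array), of the miR-99, miR-100, and miR-125 group (1), and of the miR-183 cluster (1) were not detected, and the erythroid list had none on the array. The myeloid list had 2, of which miR-322* alone was detected, and the miR-181 list 2, of which miR-181a-1* alone was detected.

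Among the 35 pairs with both entries tested, no pair was called in opposite directions. Both entries were called higher in 5 pairs (those of miR-24-1*, miR-24-2*, miR-30a*, miR-186*, and miR-455*), and the starred entry alone in 3 (miR-181a-1*, miR-322*, and miR-425*). The starred entry was called lower with the partner not called in 5 pairs (miR-30c-1*, miR-30c-2*, miR-92a-2*, miR-135a-1*, and miR-450a-2*), and both entries were called lower in 0. The partner alone was called in 6, higher in the pairs of let-7d*, miR-28*, miR-140*, and miR-193* and lower in those of miR-877* and miR-3099*. A call in 1 entry and not in the other does not show that they differed, and the ratio of the signals was therefore tested.

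**Figure D4:**
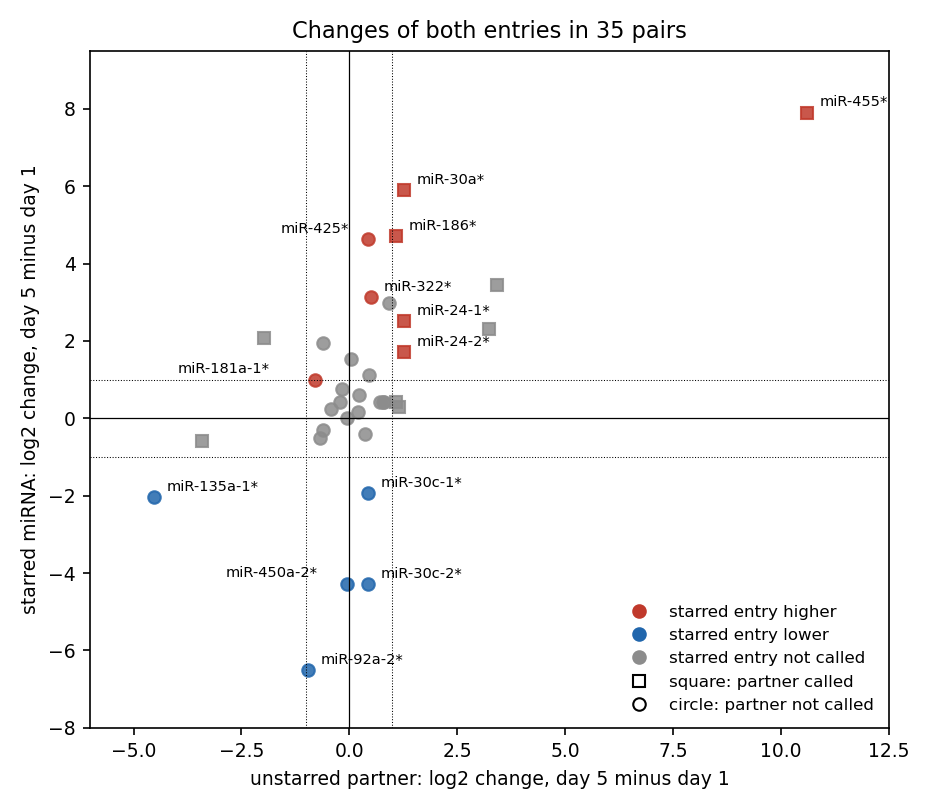
Log2 change from day 1 to day 5 of the unstarred partner (horizontal) and of the starred miRNA (vertical) in the 35 pairs with both entries tested, with the starred entry called higher in red, lower in blue, or not called in gray, and partners called as squares. The 5 pairs with both entries called higher lie in the upper right, and no square is blue.

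The ratio of starred to unstarred signal was formed within each array, which removes the scaling between arrays, for pairs with both entries detected on all 8 arrays of days 1 and 5. This held for 7 of the 107 pairs, and for 10 pairs when the starred miRNAs left out above are counted. Of the 7, 1 ratio changed from day 1 to day 5 (limma, Benjamini-Hochberg adjusted p under 0.01), against 30.0% of the 10, which is 3 ratios.

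The changed ratio was that of miR-140* (chr8:107551288-107551308, + strand) to miR-140, a pair made from a hairpin inside the span of Wwp2 that is known for its role in cartilage. The log2 ratio was 1.04, 0.97, 1.03, and 1.56 at day 1, 0.64, 0.61, 0.63, and 0.67 at day 3, and 0.44, 0.49, 0.38, and 0.33 at day 5. The 3 days did not overlap. The ratio fell by 0.74 on the log2 scale from day 1 to day 5 (SE 0.12, limma, Benjamini-Hochberg adjusted p = 0.000288; exact two-sided permutation p = 0.0286, the smallest that 4 against 4 arrays can give).

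Before normalization the signal of miR-140* was 6333.6, 4942.3, 5750.0, and 4578.6 at day 1 and 5890.1, 4991.6, 5284.5, and 4865.1 at day 5, and the days overlapped. That of miR-140 was 3089.3, 2528.2, 2818.5, and 1550.4 at day 1 and 4338.6, 3562.1, 4074.2, and 3871.8 at day 5, with no overlap. The normalized log2 change was 0.28 for miR-140* (SE 0.09, limma, Benjamini-Hochberg adjusted p = 0.0144), which was not called and became -0.0405 with 75th percentile scaling and -0.0312 without scaling. It was 1.16 for miR-140 (SE 0.09, limma, Benjamini-Hochberg adjusted p = 5.83e-07).

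**Figure D5:**
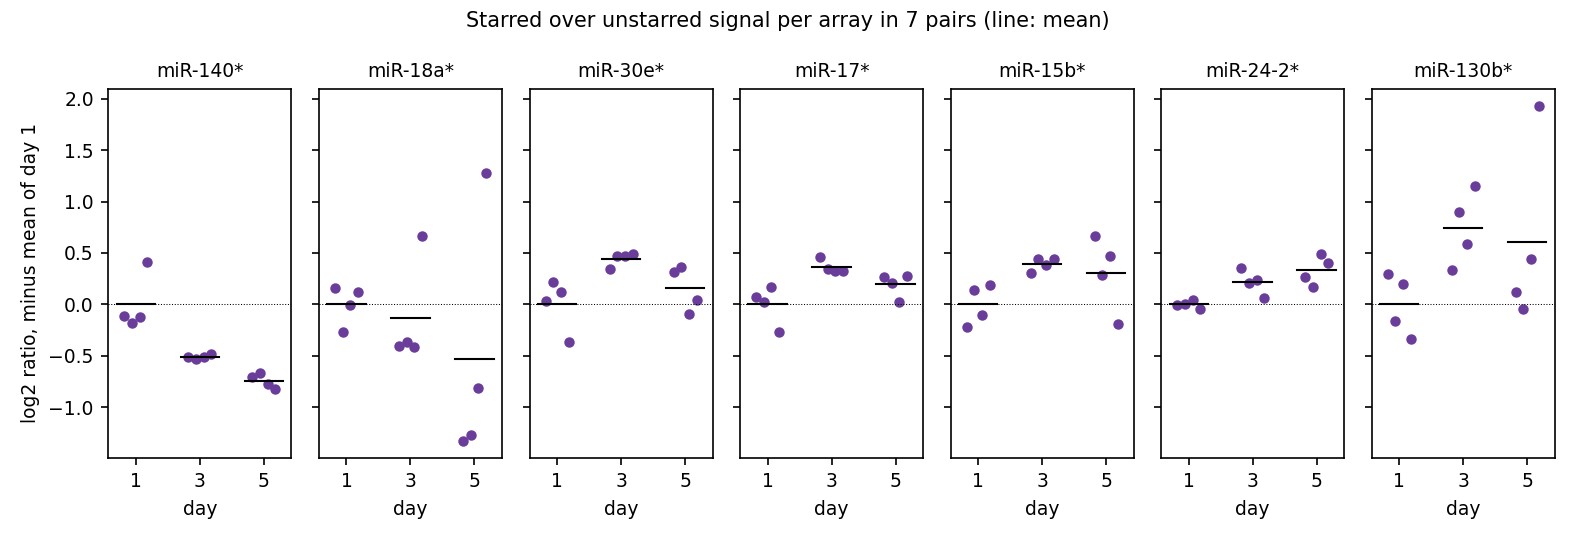
Log2 ratio of starred to unstarred signal on each array, shown as the difference from the mean of day 1, for the 7 pairs with both entries detected on all arrays of days 1 and 5, with the mean of each day as a line. All 4 arrays of day 5 lie below all 4 of day 1 for miR-140*, and the array of day 5 replicate 4 lies above the other 3 of its day for miR-18a* and miR-130b*.

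The other 6 ratios were not called. That of miR-24-2* to miR-24 rose by 0.34 on the log2 scale without overlap of the days (SE 0.10, limma, Benjamini-Hochberg adjusted p = 0.0119), which missed the threshold. For miR-15b*, miR-17*, miR-30e*, and miR-130b* the log2 changes of the ratio were 0.31, 0.19, 0.16, and 0.61, and each of these pairs overlapped between days. For miR-18a* the ratio was -3.54, -3.96, -3.70, and -3.58 at day 1 and -5.02, -4.96, -4.51, and -2.41 at day 5, so that day 5 replicate 4 lay above all of day 1 and the other 3 arrays below it.

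Without day 5 replicate 4, 3 of 11 ratios were called: miR-140* at -0.71, miR-18a* at -1.14 (SE 0.25, limma, Benjamini-Hochberg adjusted p = 0.00233), and miR-450a-2* at -2.45 (SE 0.30, limma, Benjamini-Hochberg adjusted p = 3.38e-05). The ratio of miR-450a-2* to miR-450a could not enter with all arrays because the starred entry was not detected on that array. When pairs detected on at least 1 array were allowed, 6 of 35 ratios were called: those of miR-30c-2*, miR-92a-2*, miR-140*, and miR-455* fell and those of miR-24-1* and miR-181a-1* rose. This wider set includes values at the floor, and the ratio of miR-455*, neither of whose entries was detected at day 1, has no measured starting point. The share called when the starred miRNAs left out above are counted was not computed for either setting.

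GC content was 54.5% in the median over the 7 starred miRNAs that fell and 48.9% over the 8 called higher. The shortest probe had 15.0 bases in the median for those that fell and 16.5 for those called higher. Over all miRNAs tested, these medians were 14.0 and 17.0, so the contrast was not particular to the starred miRNAs. Sequences were known for 79.3% of all miRNAs tested and 77.3% of all that fell, under the 80% needed to compare GC content. The comparison of GC content is therefore void for the whole array.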

How the data were processed

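Starred entries were chosen by name, and the family lists, marker lists, and tests were chosen with earlier results of these data known. The scanner output deposited by the authors (Feature Extraction 9.5.3.1) gives intensity on a linear scale, background-subtracted and not normalized between arrays, with a detection mark per miRNA. A further table deposited by the authors gives log2 values (GeneSpring, quantile normalization) wherever a miRNA was detected. These values correlated with the log2 scanner signal at 0.928 to 0.990, and their array medians were 8.79 to 10.26. They were thus on the log2 signal scale and not centered at 0. They served as an alternative.

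For the 334 miRNAs with a detection mark on any array, total signals were brought to common quantiles (limma 3.58.1, R 4.3.3), raised to a floor of 1 (372 of 4008 values, 9.28%), and converted to log2. A mean per day was fitted with lmFit and eBayes, and p-values were adjusted over all 334 miRNAs by Benjamini-Hochberg. Calls required an adjusted p under 0.01 and, for contrasts of days, more than 2-fold. Ratios of starred to unstarred signal were fitted without normalization. The fit was tested on simulated data. For a miRNA undetected on every array of a day, a bound takes on each of these arrays the higher of its value and the lowest signal of any detected miRNA, or, for day 1, where this was at the floor on 3 arrays, the 5th percentile of the detected signals. Arrays carry no counts, so that their number limits the precision.

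Members named are those called between days 1 and 5 and detected on all 4 arrays of 1 of these days, those with a changed ratio, and those detected on all 12 arrays, with their partners. These were 15, and 14 more were named after their values had been seen. The alternatives covered the detection filter, scaling, floor, background correction, deposited values, the methods' analysis of variance, the replicate number as a block, slide 1 alone, and each array left out. Single values used Python 3.11.15 with scipy 1.17.1, numpy 2.4.6, pandas 2.3.3, and matplotlib 3.10.9.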

Additional observations from a re-analysis of the deposited data

Results flagged for a closer look

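Among 83 groups of 4 arrays of the 29 named starred miRNAs, 13 held an array whose gap to the nearest other array exceeded Dixon's critical value for 4 samples. Chance flags about 1 in 20 groups, and groups with 3 arrays at the floor are flagged by any value above it. Groups in which 3 arrays tie at another value are likewise flagged by any different value. This held at day 3 for miR-1982* (ties at 10.94) and miR-17* (ties at 10.46).

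Normalized log2 values at the floor on the other 3 arrays accompanied miR-30a* at 2.42 on day 1 replicate 2, miR-322* at 1.02 on day 1 replicate 2 and at 1.56 on day 3 replicate 4, and miR-30c-1* at 1.02 on day 3 replicate 3. The single array was above the others at 8.86 for miR-24-1* on day 5 replicate 3, at 9.01 for miR-450a-2* on day 1 replicate 3, at 11.11 for miR-1982* on day 3 replicate 1, at 8.44 for miR-18a* on day 3 replicate 4, and at 8.33 for miR-467d* on day 5 replicate 4. It was below the others at 6.57 for miR-135a-1* on day 3 replicate 4, at 10.36 for miR-17* on day 3 replicate 2, at 6.94 for miR-18a* on day 1 replicate 2, and at 8.12 for miR-30e* on day 5 replicate 4.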

How the results depend on the processing

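Of the single-miRNA changes recomputed, 563 stayed on their side of the threshold, 67 were weaker, 5 became calls, and 23 changed sign. No called change reversed. The quantile normalized median change of all miRNAs was 0.11, and -0.51 with 75th percentile scaling and -0.50 without normalization, and the starred miRNAs split into 3 higher and 8 lower under both, while all miRNAs tested split into 48 higher and 86 or 85 lower. Counts that moved were as follows. With detection on all arrays of a day, 9 were called between days 1 and 5, 3 of them higher. With detection on all 12 arrays, 4 passed the F test, 3 were called (1 higher, 2 lower), and 2 were called at day 3. Without a detection filter 4 were higher. Normexp background gave 6 (3 higher, 3 lower) and 3 at day 3, where the F test gave 17. Deposited values, which are empty where a miRNA was not detected, gave 7 past the F test, 6 called (2 higher, 4 lower), and 4 at day 3. A floor of 0.1 gave 4 lower.

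Leaving out 1 array gave 11 to 18 past the F test, 10 to 16 called, 6 to 10 higher, 4 to 8 lower, 10 to 13 at day 3, and 1 to 3 changed ratios. Calls over all miRNAs were not counted in these fits. The 4 lower came without day 5 replicate 3. With pairs detected on at least 1 array 6 ratios were called, and with more than 2-fold required 0 (limma; 1 at the adjusted p alone). Deviations from the day means correlated at -0.435 to 0.699 between same-numbered arrays of different days, and those of replicate 4 at 0.236, 0.335, and 0.699. Arrays with different numbers were not compared, so whether the numbers pair the arrays cannot be told from these values. The replicate block gave 16 past the F test, 14 called (8 higher, 6 lower), 12 at day 3, and 1 ratio. Over all 334 miRNAs it gave 81 higher and 72 lower. It ended the calls of miR-181a-1* and miR-30c-1* and added miR-470*.

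Uncalled changes that reversed were, with 75th percentile scaling and without normalization, miR-140* (-0.0405, -0.0312), miR-130b* (-0.19, -0.18), miR-15b* (-0.39, -0.38), miR-106b* (-1.49, -1.53), miR-191* (-0.20, -0.19), miR-21* (-0.87, -0.86), and let-7d* (-0.20, -0.19). Others were miR-30e* with detection on all 12 arrays (-0.15), miR-106b* (-0.22) and miR-21* (-0.26) without a filter, deposited values of miR-21* (-0.73) and let-7d* (-2.13), and, with 1 array left out, miR-21* (-0.0643 to 0.39; below 0 without day 1 replicates 1 or 2) and let-7d* (-0.46 to 0.97; below 0 without day 1 replicate 2 or day 5 replicate 4). The cause was not tested. Of the miRNAs listed here, miR-140*, miR-130b*, miR-15b*, and miR-30e* were detected on all 12 arrays and the others on fewer. Of the 110 starred miRNAs, 67 were never detected.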

Other observations

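MiR-17* reached its highest normalized log2 mean at day 3, where all 4 arrays (10.46, 10.36, 10.46, and 10.46) lay above all arrays of days 1 and 5. Its signals before normalization were 1151 to 1531 at day 1 and 801.4 to 989.4 at day 3, so that they fell while the normalized values rose, and day 3 is on its own slide.

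Of the starred miRNAs that shared a host gene span, miR-191* and miR-425* both lie inside the span of Dalrd3. MiR-191* was detected on 11 arrays with a log2 change of 0.42 (limma, Benjamini-Hochberg adjusted p = 0.0186) and miR-425* on 2 arrays, both of day 5, with mean signals before normalization of 19.8 at day 1 and 42.1 at day 5 that overlapped.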
